A study of Mus musculus with 59 samples.

Results

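Astrocytes are described here through 31 genes that are commonly used to recognise them, among them the markers Gfap and Apoe. The genes were taken by symbol from a list of astrocyte genes, drawn up with earlier results of these data known, and each stands on 1 of the 57180 gene rows of the count table. All 31 were measured in every fit. Poly(A) RNA of 2 brain tissues, cortex and hippocampus, was sequenced in 59 libraries from 30 mice, all male. The mice carry 4 labelled genotypes: wild type at both loci (Mrpl40 +/+,Slc25a1 +/+; 9 cortex and 8 hippocampus libraries), Slc25a1 het (Slc25a1 -/+ only), Mrpl40 het (Mrpl40 -/+ only) and double het (both genes -/+), the last 3 with 7 libraries in each tissue. Mrpl40 is a protein of the mitochondrial ribosome and Slc25a1 carries citrate out of mitochondria, and the human counterparts of both lie in 22q11.2. No treatment is labelled, and the sources used here give no age, strain or way in which the alleles were made. Each library is 1 dissected tissue of 1 mouse, so fewer astrocytes and less RNA per astrocyte cannot be told apart.

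Astrocytes take up neurotransmitters and potassium, pass water and ions through channels on the endfeet that wrap blood vessels, share small molecules through gap junctions, and secrete lipoproteins and matrix proteins that act on synapses. Gfap, an intermediate filament protein, is known to be stronger in hippocampal astrocytes than in most cortical ones, while Aldh1l1, an enzyme of folate metabolism, labels astrocytes more evenly. Several of the genes are also made by other cells: Apoe by microglia, Vim, Id3, S1pr1 and Slco1c1 by cells of blood vessels, and Clu and Sparcl1 by some neurons.

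Of the 31 genes, 24 had a promoter in the RefSeq table for GRCm38.p6, with 32 windows of 250 bases before a transcription start. The windows of Gfap and Agt are printed because these genes had the largest hippocampal rises, and that of Aldh1l1 because it fell while other astrocyte genes rose. All are 5′ to 3′ on the gene's strand, and capitals mark motif matches. Gfap lies at chr11:102897201-102897450 (minus strand), Agt at chr8:124569707-124569956 (minus strand) and Aldh1l1 at chr6:90550543-90550792 (plus strand).
Gfap: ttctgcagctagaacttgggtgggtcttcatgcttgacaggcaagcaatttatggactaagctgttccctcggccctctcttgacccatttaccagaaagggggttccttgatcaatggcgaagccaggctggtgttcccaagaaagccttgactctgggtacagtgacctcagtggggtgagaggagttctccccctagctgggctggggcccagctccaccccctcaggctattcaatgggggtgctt
Agt: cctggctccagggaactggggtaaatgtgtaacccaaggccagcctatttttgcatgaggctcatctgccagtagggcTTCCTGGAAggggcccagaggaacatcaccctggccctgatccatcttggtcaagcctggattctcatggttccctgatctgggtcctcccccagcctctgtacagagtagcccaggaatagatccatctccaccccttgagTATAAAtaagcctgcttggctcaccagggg
Aldh1l1: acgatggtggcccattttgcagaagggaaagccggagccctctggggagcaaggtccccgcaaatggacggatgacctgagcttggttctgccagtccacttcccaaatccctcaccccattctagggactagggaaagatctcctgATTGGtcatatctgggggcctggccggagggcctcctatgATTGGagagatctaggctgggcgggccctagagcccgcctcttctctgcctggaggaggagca
The motifs searched on both strands were TATAAA (the TATA box), CCAAT (the CCAAT box), TTCNNNGAA (bound by STAT factors), TGANTCA (bound by AP-1) and the palindromic nuclear factor I site, whose ends can overlap a CCAAT match. The Gfap window held no match. The Agt window held a TTCNNNGAA match from 172 to 164 bases before the start and TATAAA from 30 to 25 bases before it. In Aldh1l1 the capitals are CCAAT on the opposite strand, at 103 to 99 and at 63 to 59 bases before the start. TATAAA was present in 12.4% of 32851 promoters and in 4 of the 32 astrocyte windows (Agt, Apoe, Ndrg2 and Vim). CCAAT was in 33.8% of promoters and in 11 of the 32 windows, which belong to 10 genes. TTCNNNGAA was in 7.02% of promoters and in 3 windows (Agt, Aldoc and Ntsr2). TGANTCA was in 6.75% and in 2 windows (F3 and Gja1), and the nuclear factor I motif in 0.0365% and in none. A match is a run of letters, not a shown binding site.

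Levels are given as CPM, the count of a gene relative to the total of its library after TMM scaling over all 59 libraries. Library totals ran from 21443017 to 32120906 counts. Slc25a1 stood in separate low and high ranges that went against the label in 6 mice, in both tissues: 2 labelled wild type were low, and 2 labelled Slc25a1 het and 2 labelled double het were high. Groups below are therefore named by label only. For some results that moved without these mice, the value without them is given beside the main value. The low Slc25a1 range ran from 10.8 to 13.1 CPM and the high one from 21.0 to 26.3 CPM in cortex. Mrpl40 did not tell its labels apart: it ranged from 14.3 to 20.7 CPM in cortex libraries labelled Mrpl40 +/+ and from 15.2 to 19.7 CPM in those labelled Mrpl40 -/+, and from 13.4 to 17.2 and 14.0 to 17.2 CPM in hippocampus, so the Mrpl40 labels have no check here. The hippocampus library labelled Slc25a1 het, replicate 3, had a summed level of cerebellar markers of 671 CPM, against 41.1 to 84.7 in the other hippocampus libraries. The hippocampus libraries labelled Mrpl40 het, replicate 5, and double het, replicate 6, had summed choroid plexus markers of 85.7 and 100.3 CPM.

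Per kilobase of the longest transcript, the level was highest for Sparcl1 in cortex (856 ± 30.7 CPM per kb, SD, n = 29), followed by Apoe (700 ± 75.1 CPM per kb). In hippocampus the order was turned, with Apoe at 998 ± 94.8 and Sparcl1 at 753 ± 58.3 CPM per kb. Sparcl1, also called hevin, is a secreted matrix protein that promotes synapses, and Apoe is the main lipid carrier of the brain. Clu, Ndrg2 and Aldoc held the next 3 places in both tissues. Gfap moved from place 18 in cortex (22.7 ± 5.91 CPM per kb) to place 6 in hippocampus (164 ± 16.6 CPM per kb). Agt was last in cortex at 3.17 ± 0.452 CPM per kb, and Chrdl1 was last in hippocampus at 1.68 ± 0.278 CPM per kb.

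The hippocampus was compared with the cortex in the 29 mice that gave both tissues. The 2 cytoskeletal genes, both transcription regulators, 5 of 10 genes for channels, junctions and transporters, 3 of 7 secreted proteins, 3 of 5 receptors and 2 of 5 intracellular proteins were higher in hippocampus. The 8 that were lower included 4 of the secreted proteins. By edgeR's quasi-likelihood test with the mouse as a block and Benjamini-Hochberg adjustment over all genes, 25 of the 31 genes were called, 17 higher and 8 lower. Of all 21354 genes tested, 77.4% were called, 39.7% as higher and 37.7% as lower, so the share called is near the background. At an unadjusted p under 0.05 there were 25 of 31, with 78.6% of all genes. The median log2 fold change (hippocampus over cortex) was 0.19 over the 31 genes and 0.012 over all genes. In 8 genes the 29 hippocampus libraries did not overlap the 29 cortex libraries, 7 higher (Gfap, Agt, Id3, Aqp4, Slc4a4, Gja1 and Ntsr2) and 1 lower (Chrdl1), and 15% of all genes showed such a separation. Summed markers of other cells also differed between the tissues: neuronal markers stood at 17327 to 19114 CPM in cortex and 13489 to 17478 in hippocampus, with 10 of 12 called lower, and oligodendrocyte and microglia markers were called higher in 8 of 12 and 9 of 12. Choroid plexus markers were at 3.94 to 15.4 CPM in cortex and 24.2 to 100.3 in hippocampus. Their part in the astrocyte values was not tested.

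**Figure D1:**
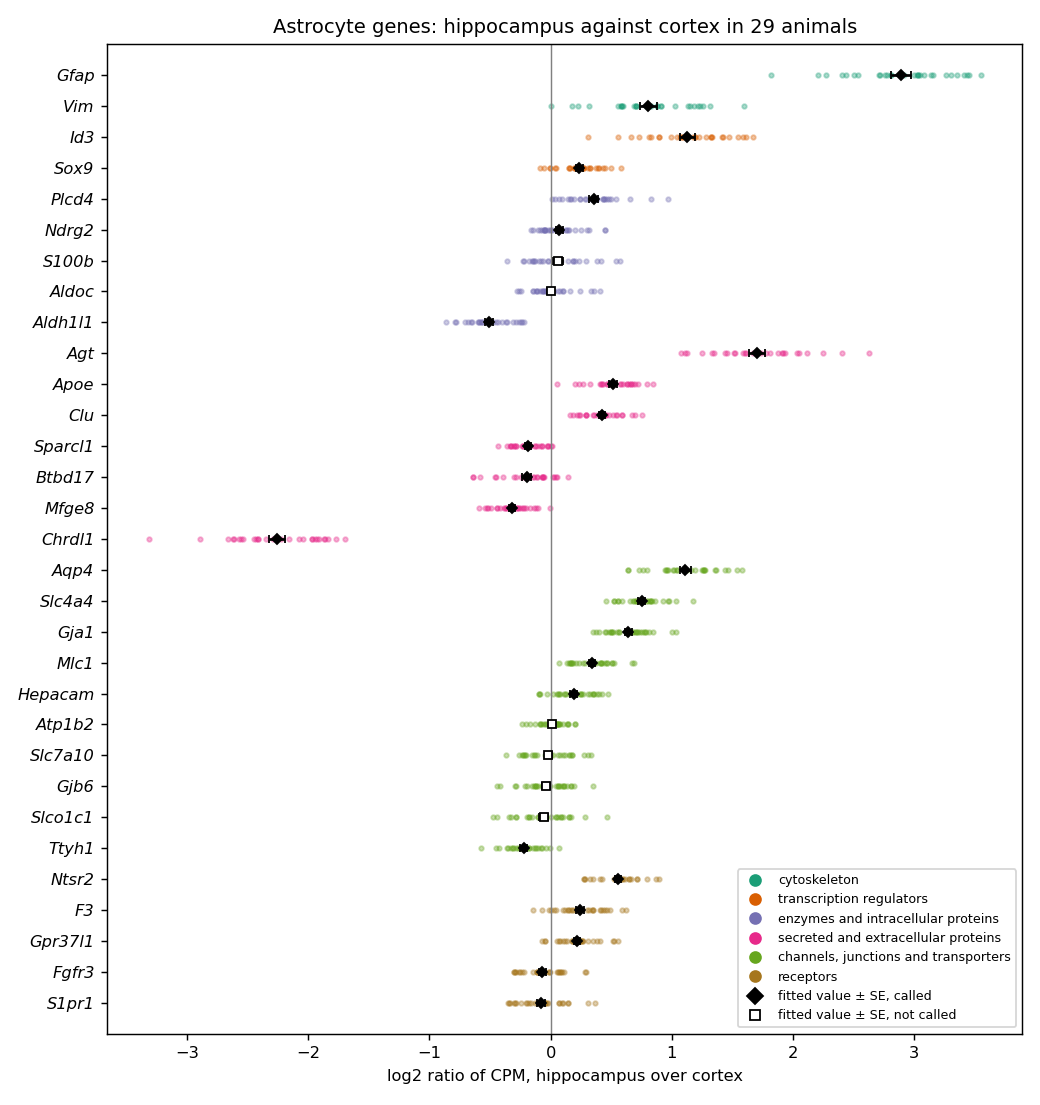
Log2 fold change of hippocampus over cortex (x axis) for each of the 31 astrocyte genes (y axis), by role, in which small dots are the 29 mice and black symbols the fitted values with bars of 1 SE, filled where called. Gfap stands at 2.89 and Chrdl1 at -2.26, with most of the other genes between -0.51 and 0.81.

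Both cytoskeletal genes rose. Gfap (ENSMUSG00000020932) ranged in cortex from 38.6 to 95.4 CPM, with a median of 54.3, and in hippocampus from 337 to 516 CPM, with a median of 433. Every hippocampus library lay above every cortex library. Gfap was 7.42-fold higher in hippocampus (log2 fold change 2.89 ± 0.083, SE; adjusted p = 1.05e-23, edgeR) and higher in 29 of 29 mice, whose own log2 differences ran from 1.82 to 3.55. By labelled genotype the fold was 7.00 in wild type and 7.14 in double het, with 7.03 for Slc25a1 het and 8.70 for Mrpl40 het. Within groups Gfap spread more in cortex (SD 0.33 on the log2 scale) than in hippocampus (0.15). Vim (ENSMUSG00000026728), vimentin, ranged from 13.5 to 33.2 CPM in cortex, with a median of 21.3, and from 29.2 to 63.1 in hippocampus, with a median of 36.3. The ranges overlapped only at their ends. Vim was 1.75-fold higher (log2 0.81 ± 0.068; adjusted p = 4.39e-12), in 29 of 29 mice.

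The transcription regulators Id3 and Sox9 rose. Id3 (ENSMUSG00000007872), an inhibitor of helix-loop-helix factors, ranged from 8.96 to 18.8 CPM in cortex, with a median of 12.4, and from 19.6 to 32.9 in hippocampus, with a median of 27.4. The ranges were separate, and Id3 was 2.19-fold higher (log2 1.13 ± 0.060; adjusted p = 2.52e-17, edgeR) in 29 of 29 mice. Sox9, a factor that directs precursors to the glial fate, was 0.24 ± 0.029 higher on the log2 scale, in 25 of 29 mice.

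Of the 10 genes for channels, junctions and transporters, 5 rose, 1 fell and 4 were not called. Aqp4 (ENSMUSG00000024411), the water channel of the endfeet, ranged from 62.7 to 98.3 CPM in cortex, with a median of 77.8, and from 139 to 207 in hippocampus, with a median of 166. Aqp4 was 2.16-fold higher (log2 1.11 ± 0.047; adjusted p = 5.43e-20, edgeR) with no overlap, and its fold by labelled genotype ran from 1.98 in wild type to 2.37 in Slc25a1 het. Slc4a4 (ENSMUSG00000060961), a sodium bicarbonate cotransporter, ranged from 117 to 145 CPM in cortex, with a median of 128, and from 192 to 274 in hippocampus, with a median of 217. Its tissues did not overlap either, at 1.69-fold (log2 0.75 ± 0.029; adjusted p = 7.64e-24).

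Gap junction genes parted. Gja1, which encodes connexin 43, ranged from 142 to 197 CPM in cortex and from 219 to 317 in hippocampus and was 1.56-fold higher (log2 0.64 ± 0.031; adjusted p = 2.11e-20, edgeR). Gjb6, which encodes connexin 30, ranged from 46.3 to 68.3 CPM in cortex and from 45.6 to 74.6 in hippocampus, with a log2 fold change of -0.037 ± 0.033 (adjusted p = 0.302). The tissue difference of Gja1 exceeded that of Gjb6 in 29 of 29 mice, by 0.68 ± 0.11 (SD) on the log2 scale; this pair contrast was added after the values were seen and is given without a test. Mlc1 and Hepacam, whose products form a complex at the endfeet, were both called higher, at log2 0.34 ± 0.028 and 0.19 ± 0.028. Ttyh1 (ENSMUSG00000030428), a membrane protein of the tweety family, ranged from 571 to 694 CPM in cortex, with a median of 623, and from 425 to 622 in hippocampus, with a median of 535. The ranges overlapped, and Ttyh1 was 1.17-fold lower (log2 -0.22 ± 0.025; adjusted p = 3.1e-10), lower in all but 1 of 29 mice. The other 3 not called were Atp1b2 (a sodium pump subunit, log2 0.013 ± 0.022), Slc7a10 (a carrier of small neutral amino acids, -0.017 ± 0.032) and Slco1c1 (a thyroid hormone transporter, -0.058 ± 0.038). Slco1c1 was called in 1 of 9 alternatives, with length and GC trends removed (-0.089, adjusted p = 0.0306; adjusted p from 0.0306 to 0.322 over the 9). Slc7a10 had no stable direction: it was called lower in wild-type mice alone (-0.13, adjusted p = 0.044) and higher once length and GC trends were removed (0.074, adjusted p = 0.0255), with adjusted p between 0.0255 and 0.801 over 9 alternatives.

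Of the 7 secreted proteins, 3 were higher and 4 lower, where 39.7% and 37.7% of all genes were called. Agt (ENSMUSG00000031980), angiotensinogen, whose window with the TTCNNNGAA and TATAAA matches is printed above, ranged from 4.19 to 7.56 CPM in cortex, with a median of 6.18, and from 13.0 to 33.9 in hippocampus, with a median of 18.6. Agt was 3.25-fold higher (log2 1.70 ± 0.067; adjusted p = 3.21e-21, edgeR), with no overlap. Chrdl1 (ENSMUSG00000031283), a secreted antagonist of bone morphogenetic proteins, went the other way. Chrdl1 ranged from 21.7 to 43.4 CPM in cortex, with a median of 33.0, and from 3.70 to 9.18 in hippocampus, with a median of 6.80. Every hippocampus library was below every cortex library, and Chrdl1 was 4.78-fold lower (log2 -2.26 ± 0.067; adjusted p = 5.86e-24) in 29 of 29 mice.

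Apoe (ENSMUSG00000002985) ranged from 781 to 1240 CPM in cortex, with a median of 1001, and from 1178 to 1668 in hippocampus, with a median of 1398. It was 1.43-fold higher (log2 0.51 ± 0.032; adjusted p = 2.08e-17, edgeR) in 29 of 29 mice, although the ranges touched. Clu, a secreted chaperone and lipid carrier, rose by a log2 fold change of 0.42 ± 0.027, from a mean of 674 to 907 CPM. Mfge8 (ENSMUSG00000030605), which tags dying material for uptake by phagocytes, ranged from 142 to 205 CPM in cortex, with a median of 173, and from 117 to 172 in hippocampus, with a median of 139. Mfge8 overlapped between tissues but was lower in each of 29 mice, at 1.25-fold (log2 -0.32 ± 0.025; adjusted p = 2.79e-14).

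Sparcl1 (ENSMUSG00000029309) ranged from 2195 to 2629 CPM in cortex, with a median of 2364, and from 1842 to 2416 in hippocampus, with a median of 2042. It was 1.14-fold lower (log2 -0.19 ± 0.024; adjusted p = 4.57e-09, edgeR), higher in 2 of 29 mice. Btbd17 (ENSMUSG00000000202) ranged from 11.1 to 17.7 CPM in cortex, with a median of 14.8, and from 9.64 to 16.7 in hippocampus, with a median of 12.6. Its ranges overlapped widely, and it was 1.15-fold lower (log2 -0.20 ± 0.037; adjusted p = 8.26e-06). In wild-type mice alone the log2 fold change of Btbd17 was -0.33, and it was -0.12 without the 6 mice whose Slc25a1 level went against the label.

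Enzymes and other intracellular proteins gave 2 genes higher, 1 lower and 2 not called. Aldh1l1 (ENSMUSG00000030088) ranged from 68.2 to 84.9 CPM in cortex, with a median of 76.0, and from 46.1 to 71.6 in hippocampus, with a median of 52.9. The ranges overlapped slightly, yet Aldh1l1 was lower in 29 of 29 mice, at 1.42-fold (log2 -0.51 ± 0.031; adjusted p = 3.08e-17, edgeR). Among labelled genotypes its log2 fold change ran from -0.57 in Mrpl40 het to -0.45 in Slc25a1 het. Plcd4, a phospholipase C, was higher by 0.36 ± 0.038. Ndrg2 was called at a small 0.071 ± 0.029 (adjusted p = 0.0245), higher in 17 of 29 mice, and it lost the call in 2 of 9 alternatives. Aldoc, the brain form of aldolase, had a log2 fold change of -0.00045 ± 0.030 (adjusted p = 0.99), with a sign that changed among alternatives, and S100b, a calcium-binding protein, one of 0.058 ± 0.041 (adjusted p = 0.201).

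Among the 5 receptors, Ntsr2, the neurotensin receptor of astrocytes, was 1.47-fold higher (110 to 143 CPM in hippocampus, 71.1 to 97.2 in cortex) with no overlap. F3, tissue factor, and Gpr37l1, an orphan receptor, were called higher by 0.24 ± 0.034 and 0.22 ± 0.028 on the log2 scale. S1pr1, a receptor for sphingosine-1-phosphate, and Fgfr3, a fibroblast growth factor receptor, were called lower by small amounts, -0.080 ± 0.033 (adjusted p = 0.0278, edgeR) and -0.067 ± 0.029 (adjusted p = 0.0337). The Fgfr3 call was present in 3 of 9 alternatives and that of S1pr1 in 7.

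**Figure D2:**
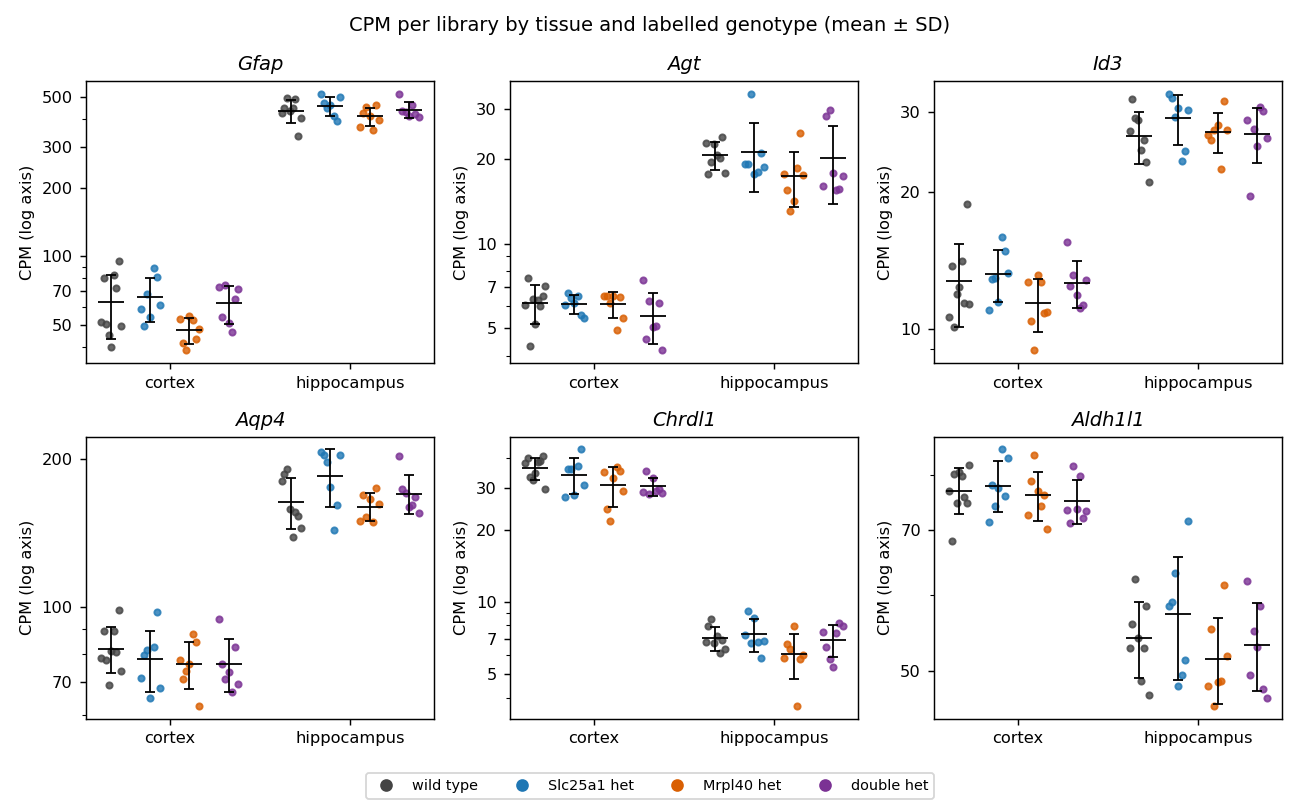
CPM (log axis) of Gfap, Agt, Id3, Aqp4, Chrdl1 and Aldh1l1 in each library of cortex and hippocampus, 1 point per library, by labelled genotype, with the group mean and SD. Gfap in hippocampus lies between 337 and 516 CPM in all libraries, above the highest cortex library at 95.4, and Chrdl1 shows the opposite order.

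Pairs of genes chosen for a known link were compared across libraries after the mean of each labelled group was taken off. Differences between the means of tissues and of labelled genotypes therefore do not enter. Genotype can still enter within a labelled group, since the Slc25a1 level of some mice went against the label. The Mrpl40 labels have no check. The 5 pairs in 2 tissues gave 10 relations, tested by permutation. All points share the scaling of their library. Apoe and Clu moved together in cortex (r = 0.77, rho = 0.78, n = 30) and in hippocampus (r = 0.80, rho = 0.81, n = 29), each with a permutation p of 1e-05, the smallest these permutations can give, and an adjusted p of 3.33e-05. Gja1 and Gjb6 had r = 0.68 (rho = 0.73) in cortex and 0.61 (rho = 0.55) in hippocampus (adjusted permutation p = 6.67e-05 and 0.000512), although only Gja1 was called between the tissues. Mlc1 and Hepacam had r = 0.66 (rho = 0.75) in cortex and 0.67 (rho = 0.66) in hippocampus (adjusted permutation p = 6.67e-05 and 0.000186). Gfap and Vim had r = 0.73 (rho = 0.74, adjusted permutation p = 3.33e-05) in cortex and 0.44 (rho = 0.50, adjusted permutation p = 0.0201) in hippocampus. Sox9 and Aldh1l1 showed no detectable relation in cortex (r = -0.089, rho = -0.089, adjusted permutation p = 0.637) and one in hippocampus (r = 0.76, rho = 0.73, adjusted permutation p = 5e-05); the difference between the tissues was not tested. Without the 2 libraries farthest from the median, the 5 cortex r were 0.65, 0.68, 0.71, 0.77 and -0.046 for connexins, Mlc1 with Hepacam, Gfap with Vim, Apoe with Clu and Sox9 with Aldh1l1, and the hippocampus r were 0.62, 0.69, 0.40, 0.73 and 0.79 in the same order. The mean r over all 465 pairs of the 31 genes was 0.40 in cortex and 0.52 in hippocampus, given as a description. Over all pairs of genes it was 0.00044 and 0.0011. Scaling each library to its genes as a whole tends to hold that mean near 0, so it is no benchmark for the 31 genes. Other cell types were not compared in this way. Of the 465 pairs, 441 in cortex and 449 in hippocampus had r above 0. The permutation p asks only whether r differs from 0, so it does not set a named pair apart from the other pairs. Agt followed the others least in hippocampus, with a mean r of 0.0096, and Aldh1l1 least in cortex, with 0.17.

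The labelled genotypes were compared within each tissue to see whether loss of 1 copy of either mitochondrial gene, or of both, moved the astrocyte genes. The 3 comparisons of a tissue share its wild-type libraries, so they are not independent of each other. No astrocyte gene was called by edgeR in any genotype comparison at an adjusted p under 0.05. In cortex, 0% of all 20394 genes were called in Slc25a1 het, 0.0294% in Mrpl40 het and 0.0686% for the double het, and in hippocampus 0%, 0.00496% and 0.00992% of 20162. At an unadjusted p under 0.05, the astrocyte genes numbered 0, 8 and 10 of 31 in the 3 cortex comparisons, where all genes gave 3.17%, 6.94% and 10.9%. The hippocampus gave 4, 7 and 1 of 31, with 7.77%, 8.19% and 5.28% of all genes. DESeq2 called 3 astrocyte genes (Slc7a10, Apoe and Btbd17) in the double het cortex and none in the other 5 comparisons, and limma on the normalized counts called none in any. The shares of all genes above are those of edgeR. In the double het cortex DESeq2 also called more of all genes than edgeR did, with both numbers given in the part on processing below. Since the 31 genes moved together from library to library, the count on 1 side of wild type, given below, describes the libraries and is not 31 separate observations.

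In the cortex labelled double het, 30 of 31 astrocyte genes lay below wild type, with a median log2 difference of -0.078, where 51.4% of all genes were below; without the 6 mice whose Slc25a1 level went against the label it was 27 genes. Slc7a10 ranged from 22.5 to 30.4 CPM in wild type, with a median of 27.3, and from 20.4 to 26.0 in double het, with a median of 22.2. The groups overlapped, and the medians in Slc25a1 het and Mrpl40 het were 25.2 and 25.5 CPM. The log2 fold change of Slc7a10 was -0.27 ± 0.057, which missed the threshold (adjusted p = 0.0512, edgeR). In hippocampus Slc7a10 had a mean of 25.0 CPM in wild type, and the other labelled genotypes had means of 25.2 (Slc25a1 het), 24.6 (Mrpl40 het) and 24.9 CPM (double het).

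Apoe in cortex ranged from 1006 to 1240 CPM in wild type, with a median of 1043, from 885 to 1148 in Slc25a1 het (median 1044), from 854 to 1004 in Mrpl40 het (median 911) and from 781 to 1023 in double het (median 904). Every cortex library labelled Mrpl40 het was below every wild-type one, the only such separation of an astrocyte gene in a genotype comparison; 0.0295% of all genes were separate in that comparison. No astrocyte gene was separate in double het (0.118% of all genes), in Slc25a1 het (0.0295%) or in the hippocampus comparisons (0.164% for Slc25a1 het, 0.0694% for Mrpl40 het and 0.0546% for double het). The log2 fold change of Apoe was -0.068 ± 0.055 in Slc25a1 het (adjusted p = 1, edgeR), -0.22 ± 0.055 in Mrpl40 het (adjusted p = 0.24) and, in double het, -0.25 ± 0.055 (adjusted p = 0.0599). Btbd17 ranged from 14.4 to 17.5 CPM in wild type (median 16.0), from 11.7 to 15.2 in Mrpl40 het (median 14.0) and from 11.1 to 15.6 in double het (median 13.4), with overlap in both. Its log2 fold change was -0.22 ± 0.065 in Mrpl40 het (adjusted p = 0.402) and -0.29 ± 0.066 in double het (adjusted p = 0.0599). Over 38 alternatives in the double het comparison, Slc7a10 was called in 11 (adjusted p from 0.00815 to 0.377), Apoe in 5 (0.00908 to 0.407) and Btbd17 in 3 (0.0103 to 0.5). Apoe was called with DESeq2 and without replicate 1 or 3 of double het or replicate 1 or 4 of Slc25a1 het. Slc7a10 was called in the same 5 cases and, among others, with no filter on low counts and without replicate 7 of Slc25a1 het or of Mrpl40 het or replicate 1 or 8 of wild type. Btbd17 was called with DESeq2, with no filter and without replicate 1 of double het. The highest p of each came without the 6 mice whose Slc25a1 level went against the label, where the log2 fold changes were -0.25, -0.21 and -0.22.

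**Figure D3:**
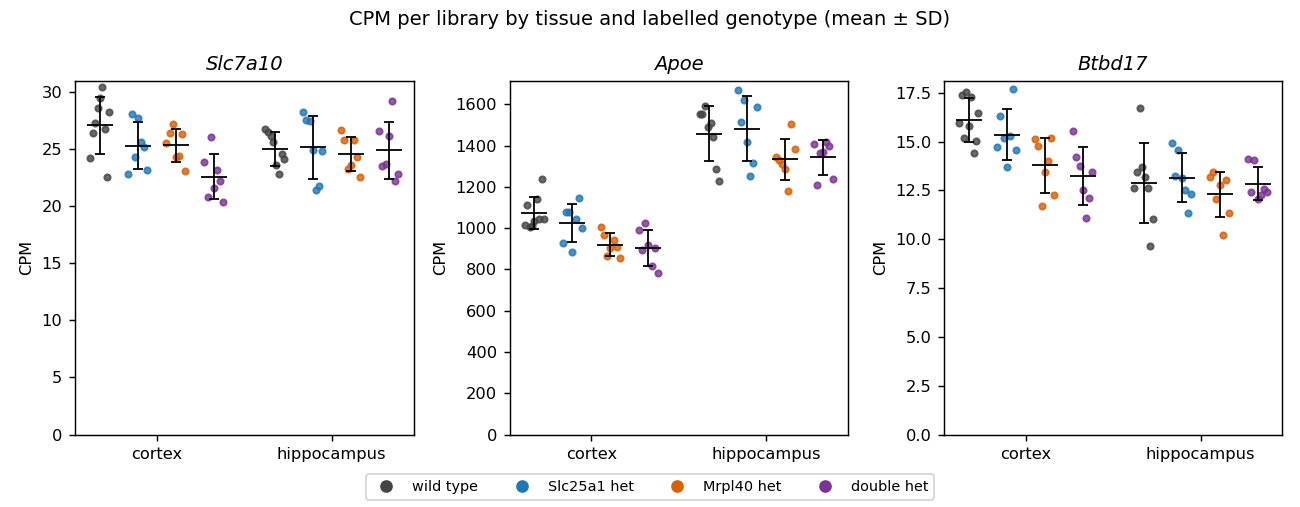
CPM (linear axis from 0) of Slc7a10, Apoe and Btbd17 in each library of both tissues, 1 point per library, by labelled genotype, with the group mean and SD. In cortex the Mrpl40 het and double het libraries of Apoe sit between 781 and 1023 CPM and those of wild type between 1006 and 1240.

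In the cortex labelled Mrpl40 het, 30 of 31 genes lay below wild type (51% of all genes), with a median of -0.074, and 29 did so without the 6 mice, with a median of -0.040. Aldoc ranged from 749 to 903 CPM in wild type (median 814) and from 676 to 779 in Mrpl40 het (median 737), with little overlap and a log2 fold change of -0.15 ± 0.042 (adjusted p = 0.38, edgeR). Gfap ranged from 40.1 to 95.4 CPM in wild type (median 51.6) and from 38.6 to 54.5 in Mrpl40 het (median 48.0). The Mrpl40 het range lay almost wholly within the lower part of the wild-type range, and the log2 fold change of Gfap was -0.42 ± 0.17 (adjusted p = 0.663). Gfap in the double het cortex ranged from 46.5 to 74.5 CPM (median 64.6), with a log2 fold change of -0.024 ± 0.17 (adjusted p = 0.975) whose sign changed among alternatives. Other cell markers moved in the same libraries. In Mrpl40 het 11 of 12 microglia, 11 of 12 endothelial, 7 of 8 pericyte and 10 of 10 fibroblast and meningeal markers lay below wild type. In double het 11 of 12 microglia, 10 of 12 endothelial and 7 of 8 oligodendrocyte precursor markers did so. Above wild type were 10 of 12 neuronal markers in Mrpl40 het and 9 of 10 fibroblast and meningeal markers in double het, and all 12 oligodendrocyte markers in each of the 3 comparisons. Summed microglia markers ran from 374 to 502 CPM over the cortex libraries, and summed fibroblast and meningeal markers from 202 to 809 in wild type and 135 to 421 in Mrpl40 het. Their part in the astrocyte values was not tested.

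In the cortex labelled Slc25a1 het, 19 of 31 genes lay below wild type (50.3% of all genes), with a median of -0.018 that became 0.015 without the 6 mice. The smallest p belonged to Slc7a10 (-0.10 ± 0.057), Slc4a4 (-0.067 ± 0.045) and Aldoc (-0.056 ± 0.042), each with an adjusted p of 1 (edgeR). With single libraries left out, Aldoc was nearest to 0 without Slc25a1 het replicate 1, at -0.024, Slc4a4 was farthest from it without Slc25a1 het replicate 6, at -0.10, and Apoe was at -0.036 without Slc25a1 het replicate 4. Gfap ranged from 49.2 to 88.8 CPM (median 61.2), well within the wild-type range, with a log2 fold change of 0.060 ± 0.17. With single libraries left out it ran from -0.029 without Slc25a1 het replicate 5 to 0.16 without wild-type replicate 8. Over all 38 alternatives the highest value of Gfap was 0.20.

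In the hippocampus no gene was called either. In Mrpl40 het 30 of 31 genes lay below wild type (52.9% of all genes), with a median of -0.11. Mfge8 ranged from 131 to 166 CPM in wild type (median 147) and from 117 to 160 in Mrpl40 het (median 119), with overlap and a log2 fold change of -0.22 ± 0.065 (adjusted p = 0.578, edgeR). Sox9 (-0.24 ± 0.091) and Clu (-0.16 ± 0.066) had the next smallest p, each with an adjusted p of 0.59. Sox9 ranged from 33.6 to 48.3 CPM in wild type (median 39.5) and from 33.3 to 39.4 in Mrpl40 het (median 33.6). Apoe ranged from 1227 to 1590 CPM in wild type (median 1501) and from 1178 to 1503 in Mrpl40 het (median 1329), at -0.14 ± 0.066. Gfap stood at -0.091 ± 0.072, or -0.059 without replicate 5 of Mrpl40 het, the library with many choroid plexus markers, and -0.14 without replicate 8 of wild type. Markers of other cells lay to 1 side in the same libraries: below wild type were 12 of 12 oligodendrocyte, 7 of 8 oligodendrocyte precursor, 11 of 12 microglia, 10 of 12 endothelial, 7 of 8 pericyte, 8 of 10 fibroblast and meningeal and 7 of 8 cerebellar markers, and above it were 8 of 12 neuronal and 7 of 8 choroid plexus markers. The part of these cells in the astrocyte values was not tested.

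In the hippocampus labelled Slc25a1 het, 29 of 31 genes lay above wild type (48.1% of all genes were below), with a median of 0.070. Aqp4 ranged from 139 to 191 CPM in wild type (median 157) and from 144 to 207 in Slc25a1 het (median 197), with wide overlap and a log2 fold change of 0.18 ± 0.078 (adjusted p = 0.61, edgeR). Slc4a4 ranged from 208 to 228 CPM in wild type and from 213 to 274 in Slc25a1 het, at 0.12 ± 0.053 (adjusted p = 0.612). Plcd4 stood at 0.20 ± 0.093 (adjusted p = 0.612). Without replicate 7 of Slc25a1 het, which had 37.5 CPM of Plcd4 where the next library had 27.4, the log2 fold change of Plcd4 was 0.096 and that of Slc4a4 0.075. Gfap (0.073 ± 0.072) and Apoe (0.029 ± 0.066) differed by about 1 SE or less, and Gfap was at 0.027 without wild-type replicate 8. In the same libraries 10 of 12 neuronal and 9 of 12 oligodendrocyte markers lay below wild type, and 10 of 12 microglia, 8 of 10 fibroblast and meningeal, 6 of 8 pericyte, 6 of 8 choroid plexus and 8 of 8 cerebellar markers above it; their part in the astrocyte values was not tested. Without replicate 3, the library with 671 CPM of cerebellar markers, 26 of 31 astrocyte genes lay above wild type, and without the 6 mice it was 25.

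In the hippocampus labelled double het, 25 of 31 genes lay below wild type (51.4% of all genes), with a median of -0.037 that was -0.087 without the 6 mice, and the smallest p were those of Mfge8 (-0.15 ± 0.065, adjusted p = 0.925, edgeR), Apoe (-0.12 ± 0.066, adjusted p = 0.989) and Ttyh1 (-0.085 ± 0.056, adjusted p = 0.989). Without replicate 2 of double het, Ttyh1 was at -0.053. Gfap ranged from 407 to 515 CPM against 337 to 494 in wild type, with a log2 fold change of 0.012 ± 0.072. In the same libraries 11 of 12 oligodendrocyte, 9 of 12 neuronal, 8 of 10 fibroblast and meningeal and 7 of 8 choroid plexus markers lay above wild type and 8 of 12 microglia markers below it; their part in the astrocyte values was not tested.

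**Figure D4:**
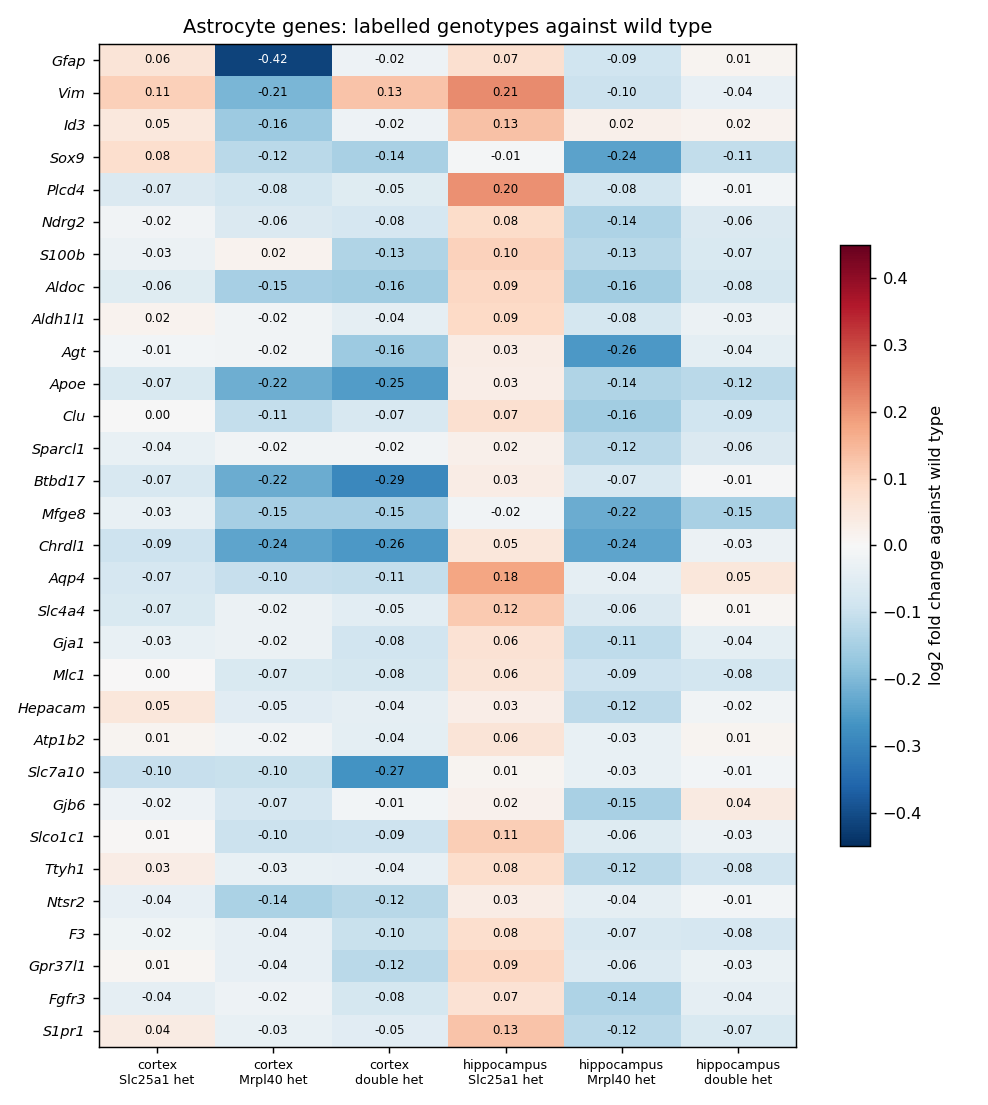
Log2 fold change against wild type (colour and printed value) of each of the 31 astrocyte genes (rows) in the 3 labelled genotypes of cortex and of hippocampus (columns). Nearly all values are below 0 in Mrpl40 het of both tissues and in the double het cortex, nearly all are above 0 in the Slc25a1 het hippocampus, and none passed the test.

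**Figure D5:**
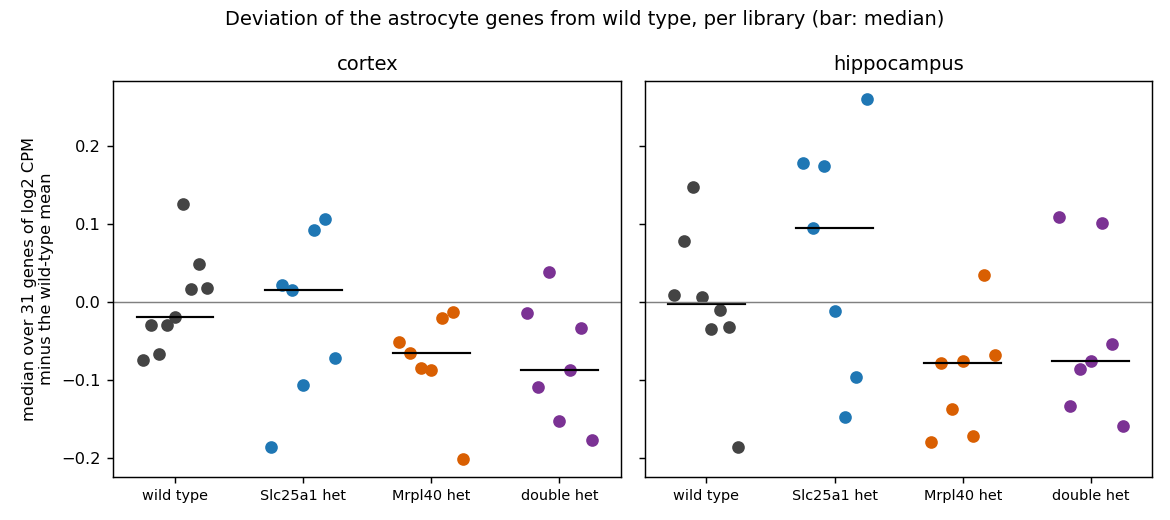
Median over the 31 astrocyte genes of the log2 CPM minus the wild-type mean of the tissue (y axis), 1 point per library, by labelled genotype and tissue (x axis), with the group median as a bar. All 7 cortex libraries labelled Mrpl40 het lie between -0.20 and -0.013, and the wild-type libraries of hippocampus alone run from -0.19 to 0.15.

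Taking the 31 genes by their median in each library, the cortex libraries ran from -0.075 to 0.13 (log2, relative to the wild-type mean) in wild type, from -0.19 to 0.11 in Slc25a1 het, from -0.20 to -0.013 in Mrpl40 het and from -0.18 to 0.038 in double het. The wild-type and Mrpl40 het ranges overlapped. Hippocampus libraries ran from -0.19 to 0.15 if labelled wild type, from -0.15 to 0.26 if Slc25a1 het, from -0.18 to 0.034 if Mrpl40 het and from -0.16 to 0.11 if double het, so all 4 ranges overlapped. Replicate 7 of Mrpl40 het in cortex and replicate 9 of wild type in hippocampus each had all 31 genes below the wild-type mean.

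The interaction asked whether the double het differed from the sum of both single differences, and no astrocyte gene was called in either tissue (0% of all genes), with 0 of 31 at an unadjusted p under 0.05 (5.35% of all genes in cortex, 3.39% in hippocampus) and 0 by DESeq2. In cortex the smallest p were those of S100b (-0.12 ± 0.067), Gpr37l1 (-0.093 ± 0.065) and Gfap (0.33 ± 0.25), with adjusted p of 0.931, 0.932 and 0.933 (edgeR); Apoe was at 0.039 ± 0.080, and from 0.0068 (without Slc25a1 het replicate 4) to 0.070 (without double het replicate 7) with single libraries left out. In hippocampus they were Gjb6 (0.16 ± 0.11), Sox9 (0.14 ± 0.13) and Id3 (-0.14 ± 0.13), with Gfap at 0.031 ± 0.10 and Apoe at -0.014 ± 0.095. Single libraries moved these values: without double het replicate 5 Gjb6 was at 0.090, without double het replicate 1 Sox9 was at 0.077, and without double het replicate 2 Id3 was at -0.075. The other alternatives widened these ranges. Over 38 alternatives in hippocampus Gjb6 ran from 0.057 to 0.22, Sox9 from 0.077 to 0.22 and Id3 from -0.21 to -0.046. Over 37 alternatives in cortex S100b ran from -0.19 to -0.097.

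Whether a genotype difference itself differed between the tissues was tested with the mouse as a block, and no astrocyte gene was called by edgeR (0%, 0% and 0.0234% of 21354 genes in Slc25a1 het, Mrpl40 het and double het) or by DESeq2. The count on 1 side was sensitive to the 6 mice: in double het 26 of 31 lay above 0 with them and 13 without. At an unadjusted p under 0.05 there were 2, 0 and 2 of 31, with 6%, 5.83% and 5.03% of all genes. In double het the smallest p belonged to Slc7a10, whose log2 difference was 0.27 ± 0.081 less negative in hippocampus than in cortex (adjusted p = 0.541, edgeR), Btbd17 (0.30 ± 0.093, adjusted p = 0.699) and Ntsr2 (0.13 ± 0.077, adjusted p = 0.996); Gfap was at 0.029 ± 0.22 and Apoe at 0.14 ± 0.089. In Slc25a1 het they were Plcd4 (0.28 ± 0.098, adjusted p = 0.816), Slc4a4 (0.18 ± 0.073, adjusted p = 0.816) and Aqp4 (0.26 ± 0.13, adjusted p = 0.829; 0.15 without the 6 mice), with Gfap at 0.0065 and Apoe at 0.10. In Mrpl40 het they were Btbd17 (0.17 ± 0.093), Ntsr2 (0.13 ± 0.077) and Sparcl1 (-0.095 ± 0.063), with adjusted p from 0.846 to 0.881, and Gfap was at 0.31 ± 0.22 and Apoe at 0.10.

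A wider list of 48 other astrocyte genes, chosen from common knowledge of the cell type, gave 29 genes called higher and 11 lower in hippocampus, where 39.7% and 37.7% of all genes were called; the median of their log2 fold changes was 0.17. The smallest p belonged to Slc14a1, a urea transporter (1.89 ± 0.045, 6.74 to 24.8 CPM), Nfia, a transcription factor of gliogenesis (1.08 ± 0.028, 54.0 to 114 CPM), and Lcat, which esterifies cholesterol on lipoproteins (1.22 ± 0.038, 13.0 to 30.5 CPM). No gene of the list was called between genotypes by edgeR, with 1, 7 and 15 of 48 at an unadjusted p under 0.05 in the cortex of Slc25a1 het, Mrpl40 het and double het and 6, 5 and 2 in hippocampus. Of all genes 3.17%, 6.94% and 10.9% had such a p in cortex and 7.77%, 8.19% and 5.28% in hippocampus. On the list, 41 and 42 of 48 lay below wild type in the cortex of Mrpl40 het and double het, 45 in the hippocampus of Mrpl40 het, and 41 above it in the hippocampus of Slc25a1 het, where the shares of all genes below wild type were 51%, 51.4%, 52.9% and 48.1% in these 4 comparisons. Of 27 genes that reactive astrocytes are known to induce, 25 were tested between the tissues, with 19 higher, 5 lower (39.7% and 37.7% of all genes) and a median of 0.50. The smallest p were those of Serpina3n, a protease inhibitor (3.02 ± 0.061, 5.80 to 47.3 CPM), Sphk1, a sphingosine kinase (-2.13 ± 0.099, 3.66 to 0.832 CPM), and Cd109 (4.27 ± 0.18, 0.328 to 6.55 CPM). None of the reactive genes was called between genotypes by edgeR, with 0, 4 and 0 of 22 at an unadjusted p under 0.05 in cortex and 3, 4 and 2 of 24 in hippocampus, in the same order and beside the same shares of all genes. DESeq2 counts were not taken over these wider lists.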

How the data were processed

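Poly(A) RNA of 59 libraries was sequenced with a stranded kit, per the labels' protocols. The authors deposited raw counts for each gene and normalized counts (signal values). The latter are the former divided by 1 factor per library, set within each tissue; the ratio varied within a library by at most 9.85e-10 in relative terms. Per the submitters' processing notes, FastQC, HISAT2, featureCounts and DESeq2 were used with the build mm39 (GRCm39); the sources used here do not name the annotation. Rows with a blank symbol (7074 of 57180) were kept under their identifiers. Totals ran from 21443017 to 32120906 counts per library.

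The raw counts were tested with the quasi-likelihood test of edgeR 4.0.16 in R 4.3.3 (filterByExpr, TMM, robust dispersion), with Benjamini-Hochberg adjustment over all genes tested and a threshold of 0.05. The 4 genotypes of a tissue were fitted together. Between tissues the mouse was a block, since the labels give the same animal number to both tissues; deviations from the group means of the same mouse had a median correlation of 0.109 over 5000 genes, against -0.0094 between different mice. Mice were separate animals. Within a tissue, an edgeR p-value sets a difference against the spread between mice of the same labelled genotype. Between tissues, it is set against the spread of the tissue differences of the mice. Log2 CPM used a prior count of 2. Lengths are those of the longest transcript in GENCODE vM21 (GRCm38), and promoters come from RefSeq; no coordinate was carried between builds. Pair correlations used 100000 permutations, two-sided. The alternatives included DESeq2 1.42.0, limma 3.58.1 on the normalized counts (log2 of the value plus 1, mean of at least 10), other scaling and filters, blocks and left-out libraries. The fits were also run on simulated data. The recovery found there is not given here, so the size of genotype difference that these tests could miss is not stated. Figures were drawn with matplotlib 3.10.9.

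The named genes are Gfap and Apoe in every comparison, all called genes between tissues (the 6 largest rises and falls in full), and in each other comparison the 3 genes with the smallest p. The members and lists were chosen with earlier results of these data known. The other marker lists hold genes common for each cell type.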

Additional observations from a re-analysis of the deposited data

Results flagged for a closer look

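In 13 of 248 groups of libraries, 1 per gene, tissue and labelled genotype, the highest or lowest library stood apart from the rest by Dixon's criterion, where chance gives about 1 in 20. Agt and Vim were highest in the hippocampus library labelled Slc25a1 het, replicate 3, at 33.9 CPM (next library 21.0) and 63.1 CPM (next 44.0); this is the library with 671 CPM of cerebellar markers. Replicate 7 of the same group was highest for Plcd4 at 37.5 CPM (next 27.4) and for F3 at 62.8 CPM (next 52.9). In cortex, wild-type replicate 8 was highest for Vim at 31.8 CPM (next 23.0) and Id3 at 18.8 CPM (next 14.1); its summed fibroblast and meningeal markers, 809 CPM, were the highest of all cortex libraries, and their part in the 2 values was not tested. Vim was also highest in cortex double het replicate 1, at 33.2 CPM (next 22.3).

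Cortex Mrpl40 het replicate 7, in which all 31 astrocyte genes lay below the wild-type mean, was lowest for Ntsr2 at 71.1 CPM (next 79.3) and for Sparcl1 at 2195 CPM (next 2336). Gjb6 was highest in cortex Mrpl40 het replicate 5, at 61.0 CPM (next 55.3). In hippocampus, Sox9 was highest in Mrpl40 het replicate 6 at 39.4 CPM (next 35.1), Aqp4 was highest in double het replicate 1 at 202.6 CPM (next 174), and Slco1c1 was lowest in wild-type replicate 9 at 49.1 CPM (next 54.7). No cause was tested.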

How the results depend on the processing

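The count of astrocyte genes called in the cortex labelled double het changed with the setting: 0 in the main test, 3 with DESeq2 (111 of all genes against 14), 2 with no filter on low counts (22 of all genes) and 1 with the replicate number as a block (8 of all genes), a block under which Slc7a10 had an adjusted p of 0.0336. Leaving out single libraries gave 0 to 3: 3 without double het replicate 1, 2 without double het replicate 3 or Slc25a1 het replicate 1 or 4, and 1 without Slc25a1 het replicate 7, Mrpl40 het replicate 7 or wild-type replicate 1 or 8. The numbers of all genes called in these fits are not given here, so the counts do not set the astrocyte genes apart from other genes. Without the 6 mice, 2 of all genes were called. DESeq2 also called 23 of all genes in the Mrpl40 het cortex (6 in the main test) and 13 in the Mrpl40 het hippocampus (1). In the other 11 comparisons the number of astrocyte genes called stayed within 1.5 times the main count under the alternatives run.

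Signs of values near 0 changed. Between tissues, Aldoc was 0.0040 with no filter, 0.0052 with length and GC offsets and 0.0047 without the mouse as a block, Slc7a10 was 0.074 with the offsets, and Atp1b2 was -0.0040 without the 6 mice. Gfap in the double het cortex was 0.022 with limma, 0.00044 with the offsets, 0.047 with the replicate block and 0.14 without the 6 mice. With the replicate block, Gfap was -0.016 and Apoe -0.055 in the Slc25a1 het hippocampus, Gfap -0.074 in the double het hippocampus, and the hippocampus interaction of Apoe 0.071. The block also moved values with the same sign by over 1.5 times: in hippocampus Apoe was -0.22 in Mrpl40 het and -0.20 in double het, and Gfap was -0.18 in Mrpl40 het. Without the library with high cerebellar markers the hippocampus interaction of Apoe was 0.012, and without the 6 mice that of Gfap was -0.013. Without the 6 mice the tissue difference of Gfap was -0.098 in Slc25a1 het and -0.12 in double het, where 13 of 31 astrocyte genes lay above 0 in place of 26. Leaving out single libraries, Gfap ran from -0.029 to 0.16 in the Slc25a1 het cortex, from -0.089 to 0.072 in the double het cortex, from 0.027 to 0.11 in the Slc25a1 het hippocampus, from -0.035 to 0.041 in the double het hippocampus and from -0.013 to 0.076 in the hippocampus interaction; Apoe ran from -0.0044 to 0.067 in the Slc25a1 het hippocampus and from -0.052 to 0.019 in the interaction. The cause was not tested in any of these.

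The labels do not say whether replicate numbers link libraries across genotypes. Same-numbered libraries had a median correlation of deviations of 0.126 in cortex (-0.41 to 0.54), against -0.028 between other numbers. In hippocampus it was 0.043 (-0.48 to 0.52), against 0.011. In cortex 7 of 30 libraries and in hippocampus 4 of 29 correlated best with their own number. Whether the number stands for a shared factor was not tested. Limma was not run between tissues, since the authors scaled each tissue separately. The alternative without 3 hippocampus libraries with high regional markers was chosen after seeing the data. All 31 genes passed the filter on low counts.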
